A study of Mus musculus with 39 samples.

Results

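The ribbon synapse and presynaptic release genes are 45 listed genes of the photoreceptor terminal, and 44 of them were measured among 18193 genes of the array. Each gene was represented by the probe set of highest mean among those paired with that symbol alone. No such probe set was found for Veli3, an older name of the listed gene Lin7c. The 44 measured members comprised 10 ribbon and active zone scaffold genes, 12 genes of SNARE proteins and their regulators, 4 of the calcium channel complex, 6 of synaptic vesicle proteins, 8 of adhesion and terminal scaffold and 4 of vesicle endocytosis. The chosen probe set had at least 1 present detection call for 38 of the 44. Counting any probe set paired with the symbol alone, 41 members had one. Detection calls given below are those of the chosen probe set.

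Photoreceptors release glutamate without pause in darkness, from a terminal in which an electron-dense ribbon holds vesicles next to calcium channels. Calcium entering through L-type channels reaches SNARE proteins on vesicle and plasma membrane, which fuse the membranes under the control of complexins and synaptotagmins. Rod and cone terminals are built from largely the same proteins but differ in shape, in the number of ribbons and in their partners.

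Signals came from Affymetrix mouse 430 2.0 arrays hybridised with amplified RNA of photoreceptors sorted for green fluorescent protein (GFP). The sorted cells came from Nrl-ko-Gfp mice (ko), bred from Nrl-ko and wt-Gfp parents, which lack the rod-determining transcription factor Nrl, and from wt-Gfp mice (wt). In both genotypes the Nrl promoter drives GFP, so the cells are those in which that promoter is active, and per the series design the GFP-positive ko cells are cones of the S type in place of rods. The arrays fall into ko at embryonic day 16 (E16, 3 arrays), at postnatal days 2, 6 and 10 (P2, P6 and P10, 4 arrays each) and at 4 weeks (4 arrays), and wt at the same 5 stages with 4 arrays each. Neither the strain nor the number of animals behind an array was given in the sources used here. The title of ko 4 weeks replicate 1 alone adds the word retina, and whether that array was prepared otherwise was not tested.

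Nrl lay between 5.36 and 6.48 (log2 signal) on 18 of the 19 ko arrays and between 8.76 and 12.33 on the 20 wt arrays. The exception was ko 4 weeks replicate 2 at 9.05, which also held the highest Mki67 (10.63), Rrm2 (11.73) and Sox11 (12.67) of that group, genes of dividing or newborn cells. At 4 weeks 7 of 7 measured rod markers were lower in ko, 5 of them with a limma adjusted p under 0.05. Cone markers were higher for 9 of 9, all with an adjusted p under 0.05. Markers of amacrine and horizontal cells, averaged over 13 genes, lay between 7.01 and 7.12 on the ko P6 arrays and between 7.78 and 8.15 on the wt P6 arrays. Bipolar markers, averaged over 9 genes, lay between 9.32 and 9.44 in ko at P10 and between 8.69 and 9.29 in wt. Of the 9 bipolar differences at P10, 5 were negative, with a median of -0.06. Lhx4, Otx2 and Pcp2 were higher in ko there with a limma adjusted p under 0.05. A further 5 arrays (ko E16 replicate 3, ko P2 replicate 4, ko P6 replicate 4 and wt P10 replicates 1 and 2) had the lowest spread over probe sets, with SDs of 1.34 to 1.41 against 1.45 to 1.80 on the others. These 5 and ko 4 weeks replicate 2 are the 6 doubted arrays, a choice made after their values were seen. Counts of members called in each comparison are given with and without them, and member calls lost without them are named.

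A gene was called where its adjusted p from limma was under 0.05 over all genes. Of the 44 members, 10 were called between the genotypes in at least 1 stage and 3 in at least 2, against 8.02% and 1.79% of all genes. Fits of only the 2 groups compared, which estimate the spread from fewer arrays, kept 1 of these 13 calls, Cacnb2 at 4 weeks. The genotype effect differed between stages for 6 members, against 3.14% of all genes, and 1 of these, Rab3a, was called at no single stage. At E16, 0 members were higher and 3 lower in ko, against 0.308% and 0.819% of all genes. At P2, limma called 0 members (6 had an unadjusted p under 0.05), against 0.126% of genes higher and 0.22% lower. At P6, 1 member was higher and 1 lower, against 0.797% and 0.748%. At P10 the counts were again 1 and 1, against 1.95% and 0.868%. At 4 weeks 4 members were higher and 2 lower, against 2.11% and 2.62%. The medians of the members' differences (ko minus wt, log2) were -0.46, -0.04, -0.08, 0.01 and 0.00 in order of stage, beside medians over all genes of 0.07, 0.03, -0.02, -0.06 and 0.03.

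**Figure D1:**
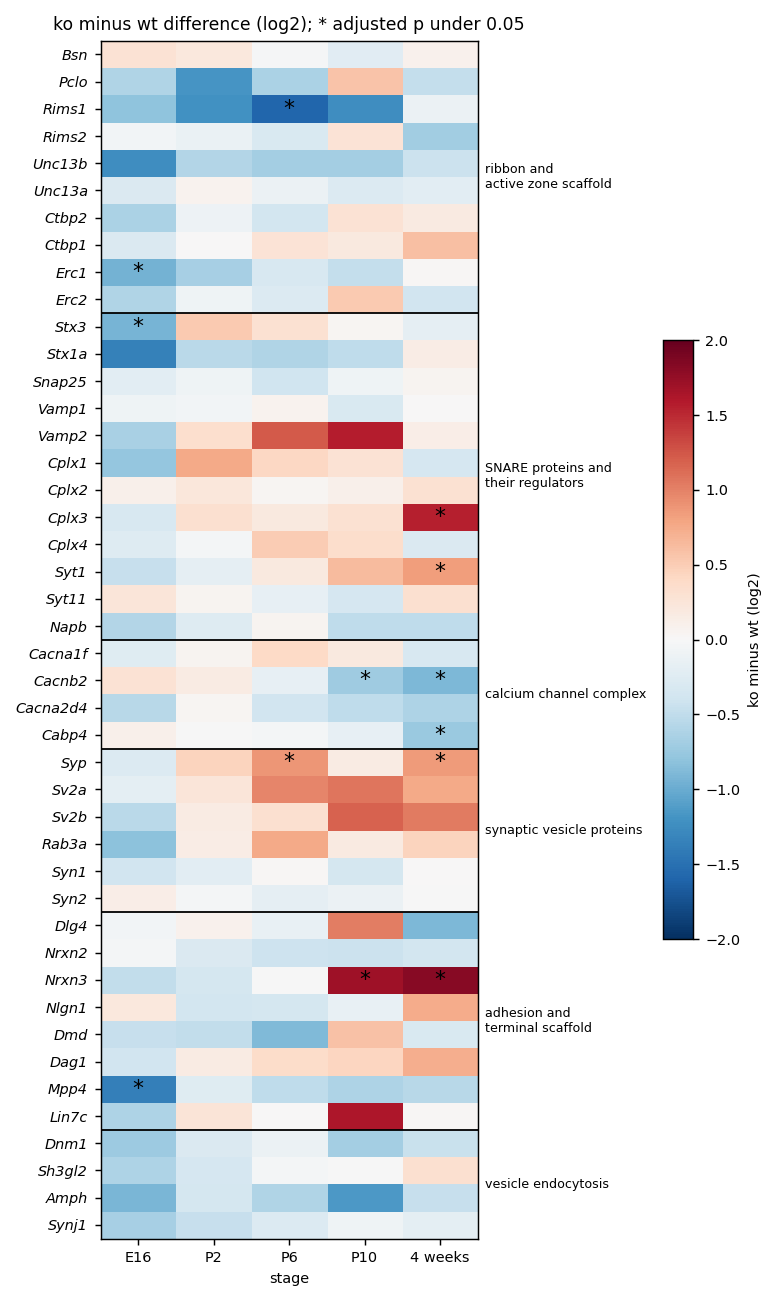
Difference between ko and wt (log2, colour) for the 44 measured members (rows, grouped by role) at each stage (columns), with an asterisk where the adjusted p was under 0.05. Of the differences at E16, 37 of 44 were below 0, and the 3 asterisks there mark lower members, while 4 of the 6 at 4 weeks mark higher members.

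At E16 the difference was negative in 37 of 44 members, and ko and wt arrays did not overlap in 15 of 44, against 8.39% of all genes. Without the 6 doubted arrays, which removes ko E16 replicate 3, the members' median was -0.27 and 4 members were called, all lower, against 1.75% of all genes higher and 1.96% lower in that fit. Ganglion cell markers were lower in ko at the same stage: their mean over 11 genes lay between 7.36 and 8.18 on ko arrays and between 8.47 and 9.22 on wt arrays, and 4 of the 11 (Gap43, Nefl, Nefm and Pou4f1) were called. The mean over 13 amacrine and horizontal markers lay between 7.11 and 7.30 on ko arrays and between 7.83 and 8.21 on wt arrays at E16, with 10 of 13 differences negative and 0 called by limma. Müller glia means were also lower in ko (8.29 to 8.34, against 8.44 to 8.69 in wt). So were bipolar means (8.56 to 8.59, against 8.65 to 8.74) and rod means (7.20 to 7.41, against 7.68 to 8.69). Differences were positive in 3 of 9 Müller glia, 5 of 9 bipolar and 3 of 7 rod markers, and only Nrl was called. Cone means (8.69 to 9.19, against 9.19 to 9.61) and dividing-cell means (9.15 to 9.60, against 9.35 to 9.87) overlapped. The part of these markers in the members' differences was not tested. In sorted cells measured in bulk, fewer cells of a type and less RNA per cell cannot be told apart.

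Promoter windows from RefSeq (GRCm38.p6, 250 bases before to 50 after a start) were listed for 37 of the members, 54 windows in all. The search covered 5 short motifs on both strands: the CRX-type motif TAATCC, named for a photoreceptor homeobox factor, the NRL-type motif TGCTGA, a half-site of Maf factors, 2 further homeobox motifs and an E-box. The further homeobox motifs were spelled CAATTAG for the longer and TAATTA for the shorter, and the E-box was spelled CACGTG. The CRX-type motif was in 7 of 54 member windows (13.0%) and in 7.06% of 32851 windows in all, and the NRL-type motif in 9 of 54 (16.7%) and in 19.5%. The longer and the shorter homeobox motif and the E-box were in 1, 0 and 3 member windows, and in 1.98%, 5.29% and 7.15% of all windows. The homeobox motifs share letters and can overlap one another. Members with the CRX-type motif were Ctbp2, Dlg4, Mpp4, Stx3, Sv2b and Syp. Those with the NRL-type motif were Cplx3, Mpp4, Napb, Nlgn1, Nrxn3, Sv2b, Syn1 and Unc13a. A match is a description of these letters only. Windows with a match are printed beside 4 members called between genotypes and beside the ribbon gene Ctbp2, to show where the match lies. The windows of Nrxn3 and Mpp4 with an NRL-type match are not printed, although both genes were called between genotypes. Each is written from 5′ to 3′ in the gene's orientation with the match in capitals, and a match on the opposite strand reads GGATTA for the CRX-type motif and TCAGCA for the NRL-type motif.

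The ribbon and active zone scaffold was led by Rims1 and Erc1. Rims1 (chr1:22285972-22806158, with all positions on GRCm38.p6 from RefSeq) encodes an active zone protein that binds Rab3 and tethers calcium channels near release sites. At P6 it lay at 7.14, 6.96, 7.16 and 7.66 on ko arrays, against 7.89, 9.75, 9.23 and 8.38 on wt arrays. All ko arrays were below all wt arrays, with a difference of -1.58 ± 0.38 (SE, adjusted p = 0.0235). A second Rims1 probe set was lower in ko at P6 (-2.84, adjusted p = 0.00293) and at P10 (-2.53, adjusted p = 0.00619), where the main one differed by -1.24 (adjusted p = 0.0742). At 4 weeks Rims1 averaged 7.51 ± 1.04 in ko and 7.62 ± 0.68 in wt (SD, n = 4 each), and the highest ko value, 9.04, was that of replicate 2.

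Of 13 markers of amacrine and horizontal cells, 2 were called at P6, both lower in ko. Gad1 averaged 6.06 ± 0.14 in ko and 8.83 ± 0.48 in wt, and Tfap2b averaged 6.20 ± 0.16 in ko and 9.70 ± 0.33 in wt (SD, n = 4 each). At P6, ganglion marker means were also lower in ko (7.16 to 7.34, against 7.42 to 7.99 in wt). So were dividing-cell marker means (7.43 to 7.76, against 7.93 to 8.79). Bipolar means were higher in ko (8.89 to 9.60, against 8.69 to 8.89), but 4 of 9 bipolar differences were negative. Of the 9, only Lhx4 (1.55) and Pcp2 (3.42) were called, both higher. Müller glia means overlapped. In ko at 4 weeks the amacrine and horizontal mean was 8.25 on replicate 2, which had the high Rims1. On the other arrays it lay between 6.68 and 7.17. Replicate 2 also had the highest dividing-cell (9.995), ganglion (7.75) and Müller glia (9.21) means of its group, and the lowest cone mean (11.51). The part of these markers in the Rims1 difference was not tested. Leaving out single arrays took Rims1 at P6 out of the calls in 5 of 8 fits, with differences between -1.89 and -1.27.

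Erc1 (chr6:119570796-119848184), whose product is an active zone scaffold of the ELKS family, lay at 8.45, 8.69 and 8.64 in ko at E16, against 10.04, 9.42, 9.46 and 9.24 in wt. The groups did not overlap, and the difference was -0.95 ± 0.20 (SE, adjusted p = 0.00936). Ko stayed below all wt arrays at P2 (-0.67, adjusted p = 0.16) and P10 (-0.47, adjusted p = 0.194), neither called. The E16 call of Erc1 was lost when the first replicate of either genotype was left out, where the highest adjusted p was 0.067, and under quantile normalization. Its other 3 probe sets differed at E16 by -0.31 to 0.23 and were not called.

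The ribbon's own gene gave no genotype call. Ctbp2 (chr7:132986998-133124009) encodes both the transcriptional corepressor CtBP2 and, from an internal start, RIBEYE, the main ribbon protein. Its probe set averaged 10.44 ± 0.85 in ko (n = 3) and 11.08 ± 0.11 in wt (n = 4) at E16, and 10.91 ± 0.29 in ko and 10.73 ± 0.18 in wt at 4 weeks (SD, n = 4 each). The lowest of the ko E16 arrays, at 9.47, was the doubted replicate 3. Over the 5 stages its differences ran from -0.64 to 0.29, with a lowest adjusted p of 0.303. Whether the probe set reads RIBEYE, CtBP2 or both was not tested. The capitals in the Ctbp2 window lie 121 bases before the start.
Ctbp2, chr7:133015198-133015497, minus strand: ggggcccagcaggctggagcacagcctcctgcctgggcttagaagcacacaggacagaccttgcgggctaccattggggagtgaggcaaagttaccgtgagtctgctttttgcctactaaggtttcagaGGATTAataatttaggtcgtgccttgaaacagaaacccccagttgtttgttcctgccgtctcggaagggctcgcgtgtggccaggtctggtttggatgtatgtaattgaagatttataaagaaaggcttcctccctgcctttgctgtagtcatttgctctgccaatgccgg

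The rest of the scaffold was not called between genotypes either. Bsn, whose product bassoon fixes the ribbon to the membrane, was called absent in all 8 groups with an assigned call, at group means of 7.10 to 7.63. Pclo, encoding the related piccolo, ranged from 8.33 to 10.80. At P2 it averaged 8.33 ± 0.47 in ko and 9.50 ± 0.10 in wt (SD, n = 4 each), with no overlap and an adjusted p of 0.581. Rims2, a relative of Rims1 at photoreceptor ribbons, averaged 9.98 ± 0.37 in ko and 10.68 ± 0.09 in wt at 4 weeks, without overlap (-0.70 ± 0.35 SE, adjusted p = 0.44). Unc13b, encoding the vesicle priming factor Munc13-2, differed by -1.24 to -0.44 over the stages, always negative, with a lowest adjusted p of 0.186. Unc13a was called absent in those 8 groups and lay between 8.34 and 8.88. Ctbp1 ranged from 10.64 to 11.65 and Erc2, the ELKS relative known as CAST, from 8.89 to 10.41, with no genotype call.

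**Figure D2:**
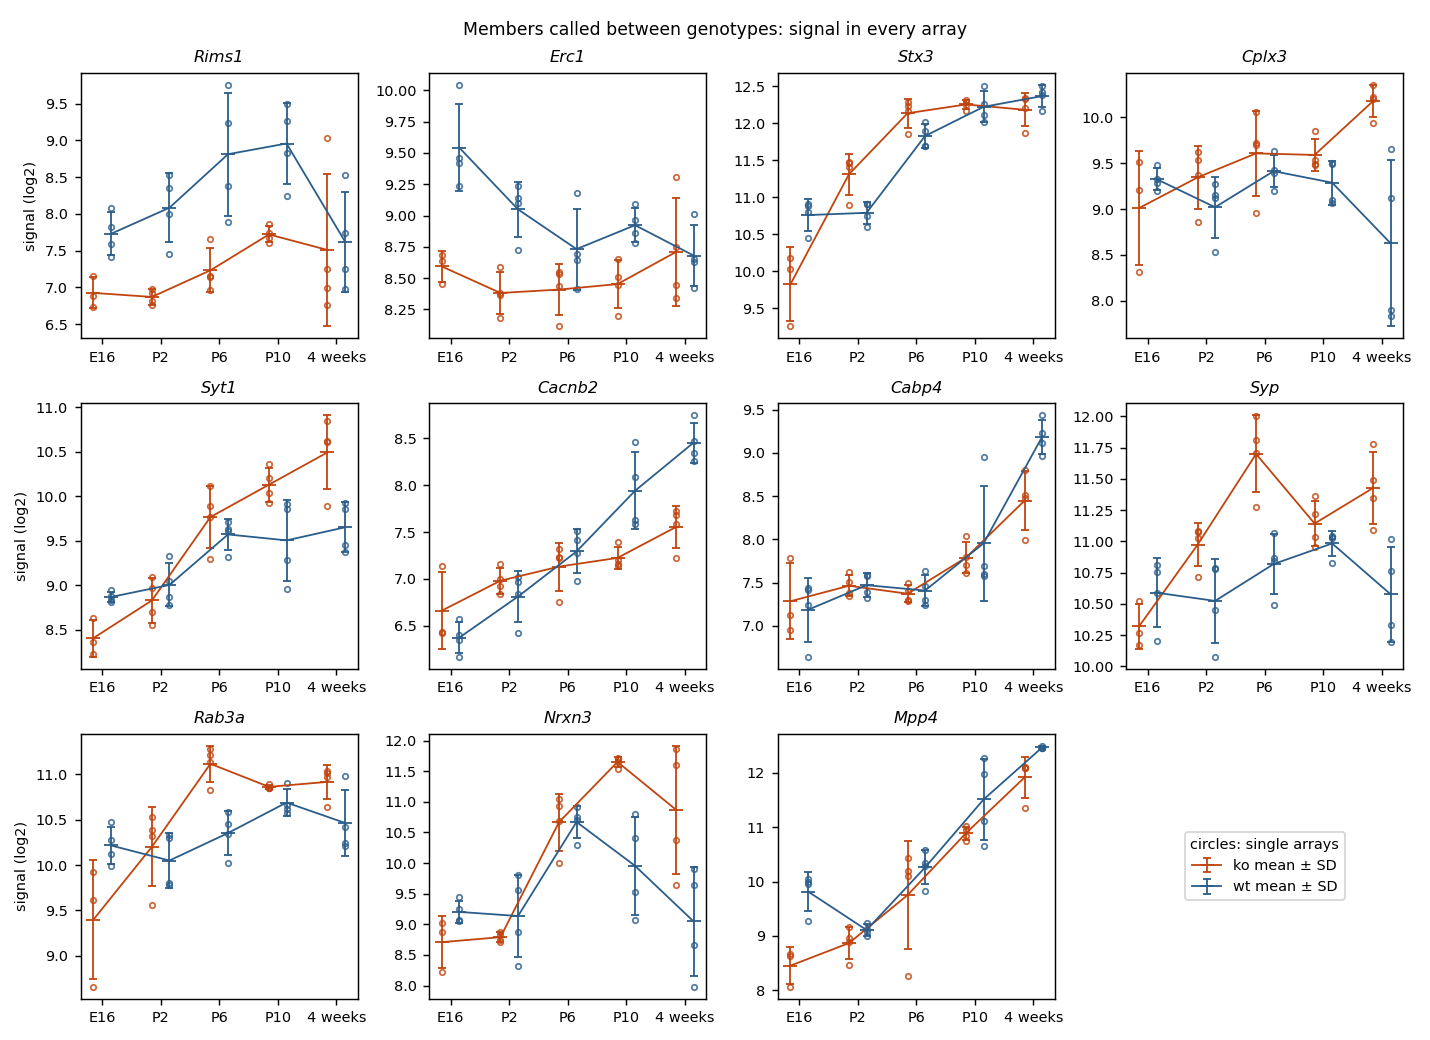
Signal (log2) of the 11 members called between genotypes at a stage or in the test across stages, in every array (circles), with group mean ± SD (bars) in ko and wt at the 5 stages. At E16, ko lies below wt for Erc1, Stx3 and Mpp4; at 4 weeks Cplx3, Syt1, Syp and Nrxn3 are higher in ko and Cacnb2 and Cabp4 lower.

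Among SNARE proteins and their regulators, 1 of 12 was called lower in ko at E16, against 0.819% of all genes. At 4 weeks 2 of 12 were called higher, against 2.11%. Stx3 (chr19:11775118-11821569) encodes syntaxin-3, the plasma membrane SNARE of ribbon synapses in place of syntaxin-1. At E16 it lay at 10.03, 10.19 and 9.26 in ko, against 10.80, 10.45, 10.91 and 10.88 in wt. Every ko array was below every wt array (-0.93 ± 0.17 SE, adjusted p = 0.00317), and the call held in all 7 fits that left out an array of these groups but not in the fit of the E16 groups alone. At P10 Stx3 averaged 12.26 ± 0.06 in ko and 12.22 ± 0.21 in wt (SD, n = 4 each).

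The genotype effect on Stx3 differed between stages (F test, adjusted p = 0.000782). From E16 to P10 Stx3 gained 0.97 ± 0.23 more in ko than in wt (adjusted p = 0.026), a call lost in the fit of these 4 groups alone. That call was lost in 8 of 15 fits without an array, and without the 6 doubted arrays. At P2 the order was reversed, with means of 11.31 ± 0.28 in ko and 10.79 ± 0.15 in wt, not called with all arrays (adjusted p = 0.32) and called without those 6 arrays (0.66, adjusted p = 0.000935) and after quantile normalization. The other 3 Stx3 probe sets were not called at E16. The capitals in the Stx3 window lie 30 bases after the start.
Stx3, chr19:11819354-11819653, minus strand: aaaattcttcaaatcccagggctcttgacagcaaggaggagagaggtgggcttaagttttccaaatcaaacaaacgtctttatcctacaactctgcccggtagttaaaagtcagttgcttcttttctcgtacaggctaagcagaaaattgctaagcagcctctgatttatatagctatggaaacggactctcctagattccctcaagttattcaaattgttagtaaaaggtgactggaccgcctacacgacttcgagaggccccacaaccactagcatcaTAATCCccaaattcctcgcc

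The complexins clamp and promote SNARE assembly, and complexin-3 and complexin-4 are the forms of retinal ribbon synapses. Cplx3 (chr9:57599992-57606281) was the member with the lowest adjusted p at 4 weeks. Its values were 10.35, 9.94, 10.22 and 10.20 in ko, against 9.65, 7.89, 7.83 and 9.12 in wt. The groups did not overlap although the wt arrays spread widely, and the difference was 1.55 ± 0.29 (SE, 2.94-fold, adjusted p = 0.000329). It was called in each of the 8 fits without an array, with differences of 1.29 to 1.90, but not in the fit of the 4-week groups alone. Of the wt arrays, replicates 1 and 4 had the higher Cplx3. They also had the higher amacrine and horizontal mean (8.34 and 8.11, against 6.93 and 7.07 on replicates 2 and 3). The same held for cone markers (9.60 and 9.21, against 8.03 and 8.22) and bipolar markers (8.81 and 8.83, against 8.27 and 8.35). Means of ganglion, Müller glia and rod markers were also higher on replicates 1 and 4, and that of dividing-cell markers was lower. The part of such cells was not tested. At the other stages Cplx3 differed by -0.32 to 0.33, with no call. The capitals in the Cplx3 window lie 125 bases before the start, and the same window holds the E-box.
Cplx3, chr9:57606232-57606531, minus strand: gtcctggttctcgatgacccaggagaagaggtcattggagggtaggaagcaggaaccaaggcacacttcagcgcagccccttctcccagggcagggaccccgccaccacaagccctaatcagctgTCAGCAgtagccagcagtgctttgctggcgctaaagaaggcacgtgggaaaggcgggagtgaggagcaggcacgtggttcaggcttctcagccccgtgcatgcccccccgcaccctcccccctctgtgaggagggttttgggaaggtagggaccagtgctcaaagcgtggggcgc

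Cplx4 was called between stages and at no stage between genotypes. It averaged 6.71, 7.30, 9.24, 10.56 and 11.64 in ko from E16 to 4 weeks, beside 6.97, 7.34, 8.74, 10.21 and 11.93 in wt. Its genotype differences lay between -0.29 and 0.50, with a lowest adjusted p of 0.649. Both genotypes were called absent at E16 and P2 and present at P6 and P10. Cplx1 and Cplx2 encode the complexins of conventional synapses, and neither was called between genotypes. Cplx1 ran from 7.46 to 9.14 and Cplx2 from 9.33 to 10.02 over the group means.

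Syt1 (chr10:108497650-109010980), encoding the fast calcium sensor synaptotagmin-1, lay at 10.85, 9.89, 10.62 and 10.61 in ko at 4 weeks, against 9.93, 9.37, 9.46 and 9.85 in wt. Only ko replicate 2 fell within the wt range, and the difference was 0.84 ± 0.20 (SE, 1.79-fold, adjusted p = 0.00657), or 1.04 without the 6 doubted arrays. The effect differed between stages (adjusted p = 0.0178), with -0.46 at E16 and 0.63 at P10. Another Syt1 probe set was lower in ko at E16 (-1.49), P6 (-1.001) and 4 weeks (-0.97, adjusted p = 0.011). It had the sign of the main one at E16 and the opposite sign at 4 weeks. The direction of Syt1 at 4 weeks therefore depends on the probe set. Of its other probe sets, 1 was higher in ko at P10 (0.44, adjusted p = 0.00621) and 1 was not called.

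The other SNARE genes were not called between genotypes. Snap25, the plasma membrane partner of syntaxin, stayed between group means of 12.77 and 13.36, and its differences between -0.40 and 0.05. Vamp2, the vesicle SNARE, averaged 11.43 ± 0.24 in ko and 9.87 ± 1.27 in wt at P10 (SD, n = 4 each, adjusted p = 0.128), and wt replicate 3 reached 11.62. Vamp1 was called absent in those 8 groups. Stx1a, the syntaxin of conventional synapses, averaged 8.01 ± 0.11 in ko (n = 3) and 9.36 ± 0.72 in wt (n = 4) at E16, without overlap (adjusted p = 0.0718). It was called absent in ko and present in wt at that stage. Napb, encoding beta-SNAP, which helps take SNARE complexes apart, averaged 10.31 ± 0.08 in ko and 10.82 ± 0.24 in wt at 4 weeks (adjusted p = 0.243), with all ko arrays lower. The chosen probe set of Syt11 was called absent in those 8 groups and lay between 7.34 and 7.82.

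Both members called lower in ko at 4 weeks belonged to the calcium channel complex. Cacnb2 (chr2:14603861-14988811) encodes the beta-2 subunit, which brings the photoreceptor channel to the membrane. At P10 it lay at 7.20, 7.39, 7.16 and 7.14 in ko, against 7.59, 7.63, 8.46 and 8.08 in wt. The 4-week values were 7.58, 7.22, 7.72 and 7.68 in ko, against 8.47, 8.25, 8.35 and 8.75 in wt. The groups did not overlap at either stage. The differences were -0.72 ± 0.18 at P10 (SE, adjusted p = 0.0187) and -0.90 ± 0.18 at 4 weeks (adjusted p = 0.000894), and -1.05 and -0.79 without the 6 doubted arrays.

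Cacnb2 was called absent in all 8 groups with an assigned call, so its signal was near background and no fold is given. The 4-week call held in all 8 fits without an array and in the fit of the 4-week groups alone, and the P10 call in 4 of 8. The effect differed between stages (adjusted p = 0.00619), and the gain from E16 to P10 was 1.01 smaller in ko (-1.01 ± 0.26 SE, adjusted p = 0.0447). This last call was lost in 9 of 15 fits without an array. The second Cacnb2 probe set, absent in every column, differed by -0.29 at 4 weeks (adjusted p = 0.27).

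Cabp4 (chr19:4135423-4144080) encodes a calcium-binding protein that shifts the channel's opening to more negative voltages. It lay at 8.48, 7.99, 8.81 and 8.51 in ko at 4 weeks, against 9.23, 8.97, 9.11 and 9.43 in wt. All ko arrays were below the wt arrays (-0.74 ± 0.22 SE, adjusted p = 0.0439), but the call was lost in 6 of 8 fits without an array and without the 6 doubted arrays. A second Cabp4 probe set was also lower (-1.38, adjusted p = 0.0231). Before 4 weeks the differences of the main probe set were between -0.17 and 0.10. It was called absent in 7 of the 8 groups with an assigned call, so its signal there was near background.

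Cacna1f, the pore-forming subunit of the photoreceptor channel, was not called at any stage. It averaged 7.19, 7.74, 8.83, 8.85 and 9.74 in ko from E16 to 4 weeks, beside 7.43, 7.68, 8.42, 8.65 and 10.06 in wt. Cacna2d4, the accessory alpha-2-delta-4 subunit, averaged 9.51 ± 0.18 in ko and 10.02 ± 0.62 in wt at P10, and 10.23 ± 0.21 in ko and 10.84 ± 0.37 in wt at 4 weeks (SD, n = 4 each). Its differences of -0.51 and -0.61 were not called with all arrays (adjusted p = 0.262 and 0.126) and were called without the 6 doubted arrays, at -1.03 and -0.62. At 4 weeks the difference was thus negative in all 4 members of the complex, with a median of -0.67.

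Among synaptic vesicle proteins the difference was above 0 for 5 of 6 genes at P6 and at 4 weeks, with medians of 0.54 and 0.61. Syp (chrX:7638580-7653256) encodes synaptophysin, a major vesicle membrane protein. At P6 it lay at 11.81, 11.71, 12.002 and 11.28 in ko, against 10.87, 10.85, 11.07 and 10.50 in wt. The 4-week values were 11.49, 11.09, 11.78 and 11.34 in ko, against 11.02, 10.33, 10.19 and 10.76 in wt. The groups were separate at both stages. The differences were 0.88 ± 0.18 (SE, 1.84-fold, adjusted p = 0.00591) and 0.85 ± 0.18 (1.80-fold, adjusted p = 0.00235), and both calls held in every fit without an array but in neither fit of the compared groups alone. The capitals in the Syp window lie 246 bases before the start.
Syp, chrX:7638330-7638629, plus strand: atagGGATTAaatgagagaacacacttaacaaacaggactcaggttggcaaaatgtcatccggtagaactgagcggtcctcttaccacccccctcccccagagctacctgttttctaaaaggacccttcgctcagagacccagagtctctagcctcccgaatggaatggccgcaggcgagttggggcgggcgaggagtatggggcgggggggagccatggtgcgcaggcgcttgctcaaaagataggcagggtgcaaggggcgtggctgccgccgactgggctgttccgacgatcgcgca

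Syp did not differ detectably at P10, where it averaged 11.14 ± 0.18 in ko and 10.98 ± 0.10 in wt (SD, n = 4 each). The effect differed between stages (adjusted p = 0.0246), a call lost in 4 of 39 fits without an array. Rab3a (chr8:70754703-70758608) encodes the small GTPase that docks vesicles at Rims proteins. At E16 the Rab3a arrays read 9.92, 9.62 and 8.66 in ko, against 9.99, 10.12, 10.28 and 10.48 in wt. At P6 they read 11.14, 11.22, 11.28 and 10.83 in ko, against 10.34, 10.59, 10.46 and 10.02 in wt. The groups were separate at both stages, in opposite directions, and neither difference was called alone (-0.82 and 0.76, adjusted p = 0.0704 and 0.0589). The test across stages called Rab3a (adjusted p = 0.0155), but not with its other probe set or without ko E16 replicate 3.

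Sv2a and Sv2b, transporter-like vesicle glycoproteins, had large differences with large spread. Sv2b averaged 11.29 ± 0.40 in ko and 10.26 ± 0.30 in wt at 4 weeks (SD, n = 4 each), without overlap (1.04 ± 0.42 SE, adjusted p = 0.229), and was called without the 6 doubted arrays (1.20, adjusted p = 0.00718). Sv2a averaged 9.27 ± 0.47 in ko and 8.20 ± 1.02 in wt at P10 (adjusted p = 0.184). Syn1 and Syn2, the synapsins of conventional synapses, stayed between 5.67 and 6.07 and between 7.12 and 7.49. Syn2 was called absent in those 8 groups.

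Adhesion and terminal scaffold genes gave calls in both directions. Nrxn3 (chr12:88722701-90334935) encodes a neurexin, a presynaptic adhesion molecule. At P10 it lay at 11.54, 11.64, 11.71 and 11.71 in ko, against 9.53, 9.06, 10.81 and 10.42 in wt. The ko arrays were close together and above every wt array (1.70 ± 0.40 SE, 3.24-fold, adjusted p = 0.0128). Without the 6 doubted arrays, which leaves wt replicates 3 and 4, the difference was 1.04 and not called (adjusted p = 0.188).

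At 4 weeks Nrxn3 lay at 9.64, 10.38, 11.87 and 11.60 in ko, against 9.63, 7.98, 8.66 and 9.91 in wt. Only ko replicate 1 lay within the wt range (1.82 ± 0.40 SE, 3.54-fold, adjusted p = 0.00335), and the difference was 1.99 without the 6 doubted arrays. The other 2 Nrxn3 probe sets with a present call were also higher, by 0.78 and 1.30 at P10 and by 0.81 and 1.49 at 4 weeks, all called. At P6 the mean was 10.67 in both genotypes, and the effect differed between stages (adjusted p = 0.011).

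Mpp4 (chr1:59120935-59163389) encodes a membrane-associated guanylate kinase of the photoreceptor terminal. At E16 it lay at 8.63, 8.67 and 8.07 in ko, against 9.99, 9.28, 10.05 and 9.95 in wt. The groups were separate (-1.36 ± 0.34 SE, adjusted p = 0.0425, 2.57-fold lower in ko). The call was lost in 6 of 7 fits without an array, and was kept without the 6 doubted arrays (-1.17, adjusted p = 0.00014). At 4 weeks Mpp4 averaged 11.91 ± 0.37 in ko and 12.46 ± 0.02 in wt (SD, n = 4 each), again without overlap and not called (adjusted p = 0.605). The capitals in the Mpp4 window lie 23 bases before the start.
Mpp4, chr1:59161587-59161886, minus strand: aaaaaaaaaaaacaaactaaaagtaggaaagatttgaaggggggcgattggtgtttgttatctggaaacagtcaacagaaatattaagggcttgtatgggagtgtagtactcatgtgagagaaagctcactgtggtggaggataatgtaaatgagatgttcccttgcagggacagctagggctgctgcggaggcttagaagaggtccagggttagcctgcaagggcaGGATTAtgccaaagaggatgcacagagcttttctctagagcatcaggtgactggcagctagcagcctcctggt

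Of the other 6 measured genes of this group, none was called between genotypes at any stage. Dlg4, encoding PSD-95, which lines the photoreceptor terminal, averaged 10.17 ± 0.54 in ko and 9.16 ± 1.44 in wt at P10 but 9.81 ± 0.56 in ko and 10.71 ± 0.32 in wt at 4 weeks (SD, n = 4 each). Its differences of 1.02 and -0.90 had adjusted p values of 0.283 and 0.448. Dlg4 was called absent in 7 of the 8 groups with an assigned call. Dmd and Dag1 encode dystrophin and dystroglycan, the complex that binds the postsynaptic partner across the cleft. Dag1 averaged 8.93 ± 0.34 in ko and 8.20 ± 0.19 in wt at 4 weeks, without overlap (0.72 ± 0.22 SE, adjusted p = 0.0569). Dmd ran from 9.59 to 11.10, and Lin7c, a scaffold partner of Mpp4-type proteins, from 9.14 to 10.79. Nrxn2 was called absent in those 8 groups and Nlgn1 lay between 6.68 and 7.69.

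The vesicle endocytosis genes, which recover membrane after release, gave no genotype call. Dnm1 (dynamin-1), Amph (amphiphysin) and Synj1 (synaptojanin-1) had negative differences at every stage. The differences lay between -0.73 and -0.12 for Dnm1, between -1.15 and -0.34 for Amph and between -0.67 and -0.09 for Synj1, with a lowest adjusted p of 0.236 among the 3 genes. Sh3gl2 (endophilin-A1) ran from -0.61 to 0.33.

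At P10 the calls differed when the 6 doubted arrays were left out together. Amph lay at 7.23, 7.98, 7.34 and 7.79 in ko at P10, against 7.74, 7.51, 9.49 and 10.19 in wt, where the 2 lower values were those of the doubted replicates 1 and 2. Without the 6 doubted arrays, 0 members were higher and 8 lower in ko at P10, against 1.97% and 4.61% of all genes in that fit, and the members' median was -0.25. The 8 were Cacnb2, Amph (-2.26), Unc13b (-1.66), Dnm1 (-1.44), Mpp4 (-1.24), Cacna2d4 (-1.03), Nrxn2 (-0.90) and Napb (-0.86). Only 2 wt arrays then remain at P10. At P6, without these arrays, 6 members were higher and 1 lower, against 2.44% and 1.73% of genes. Vamp2 (1.58), Rab3a (0.86), Cplx4 (0.83), Cacna1f (0.67) and Stx3 (0.40) joined Syp among the higher members. At P2 without these arrays 2 members were higher (Cplx1 and Stx3) and 1 lower (Erc1), against 0.517% and 0.61% of genes. At 4 weeks 6 were higher and 2 lower, against 3% and 4.63%.

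More members were called between stages than between genotypes. From E16 to P10, 14 members rose and 0 fell in ko, against 2.97% and 4.38% of all genes. In wt 11 rose and 7 fell over the same interval, against 9.2% and 14.3%. The members' medians were 0.56 in ko and 0.24 in wt. Rising in both genotypes were Stx3, Cplx4, Syt1, Cacna1f, Cacna2d4, Mpp4 and Sh3gl2. Stx3 rose by 2.43 ± 0.17 in ko and 1.46 ± 0.16 in wt, and Mpp4 by 2.44 ± 0.34 in ko and 1.69 ± 0.32 in wt (SE). Cplx4 and Cacna1f were called absent in both genotypes at E16, so the size of their rise is not given.

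**Figure D3:**
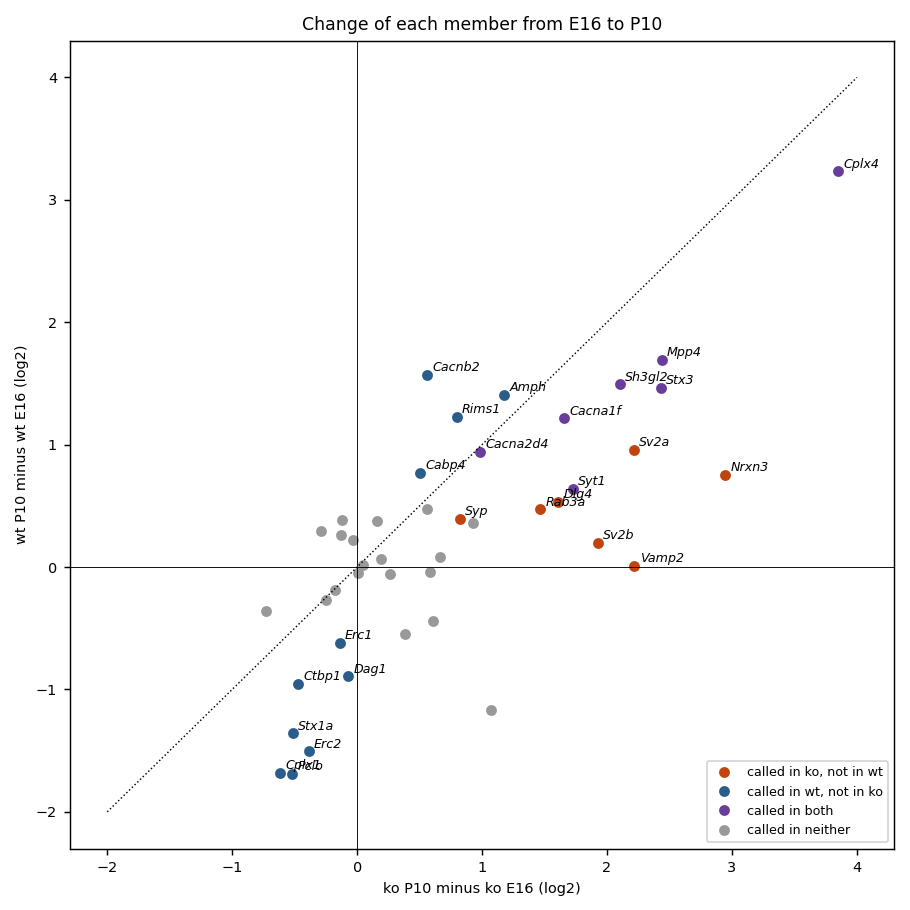
Change from E16 to P10 (log2) of each of the 44 members in ko (horizontal axis) and wt (vertical axis), coloured by the genotype in which it was called, with the dotted line marking equal change. Stx3 lies at 2.43 in ko and 1.46 in wt, below the line, and the positions of Cplx4 and Cacna1f rest on E16 signals called absent.

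Vamp2, Syp, Sv2a, Sv2b, Rab3a, Dlg4 and Nrxn3 were called as rising in ko and not in wt. Rims1, Cacnb2, Cabp4 and Amph were called as rising in wt and not in ko, and Pclo, Ctbp1, Erc1, Erc2, Stx1a, Cplx1 and Dag1 as falling in wt and not in ko. The rises of Vamp2 in ko (1.36, adjusted p = 0.0545) and of Rims1 in wt (1.14, adjusted p = 0.0593) were not called without the 6 doubted arrays. These lists do not show a difference between genotypes. The difference itself was called for 2 members, Stx3 (higher gain in ko) and Cacnb2 (lower gain in ko), against 1.09% of genes with the higher and 0.308% with the lower change in ko. Its median over the members was 0.52 with all arrays and -0.07 without the 6 doubted arrays, so the direction for the group as a whole depends on those arrays. Without them 16 members rose in ko, against 8.12% of all genes, and 4 fell (Pclo, Ctbp1, Erc2 and Nlgn1), against 13%. In wt 15 rose and 5 fell without them, against 5.04% and 7.22%.

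Among the genes that fell in wt, Stx1a fell by 1.36 and Cplx1 fell by 1.68, both forms of conventional synapses (Stx1a was called absent in wt at P10), while Pclo, at -1.69, and Erc2 (adjusted p = 0.0263) encode ribbon and active zone scaffold. The fall of Stx1a was not seen with its other probe set, which differed by 0.37 and was not called, and those of Stx1a, Erc2 and Dag1 were lost without the 6 doubted arrays.

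From P10 to 4 weeks 6 members rose and 2 fell in wt, against 4.25% and 1.09% of all genes. Cplx4 rose by 1.72 ± 0.32, Rims2 by 1.67 ± 0.35, Dlg4 by 1.56 ± 0.45, Cacna1f by 1.41 ± 0.26, Cabp4 by 1.23 ± 0.22 and Cacna2d4 by 0.82 ± 0.22 (SE, with Cabp4 and Dlg4 called absent in wt at P10), while Rims1 and Syt11 fell. Of the 8 calls, those on Rims1, Syt11, Cacna2d4 and Dlg4 were lost without the 6 doubted arrays, where 4 members rose and 0 fell, against 1.51% and 1.67% of genes. The fit of these 2 wt groups alone called 0 of the 8. The fall of Syt11, whose chosen probe set was called absent in wt at P10, was also lost under the filter on detection calls. In ko limma called 0 members over the same interval (11 had an unadjusted p under 0.05), against 0.72% of genes higher and 0.319% lower. Without the 6 doubted arrays, 8 members rose in ko and 0 fell, against 1.72% and 1.55% of genes: Cplx4 (1.28), Mpp4 (1.21), Sh3gl2 (1.21), Cacna1f (0.92), Rims2 (0.84), Cabp4 (0.81), Cacna2d4 (0.70) and Syt1 (0.56). Whether this last step differed between genotypes was not tested.

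**Figure D4:**
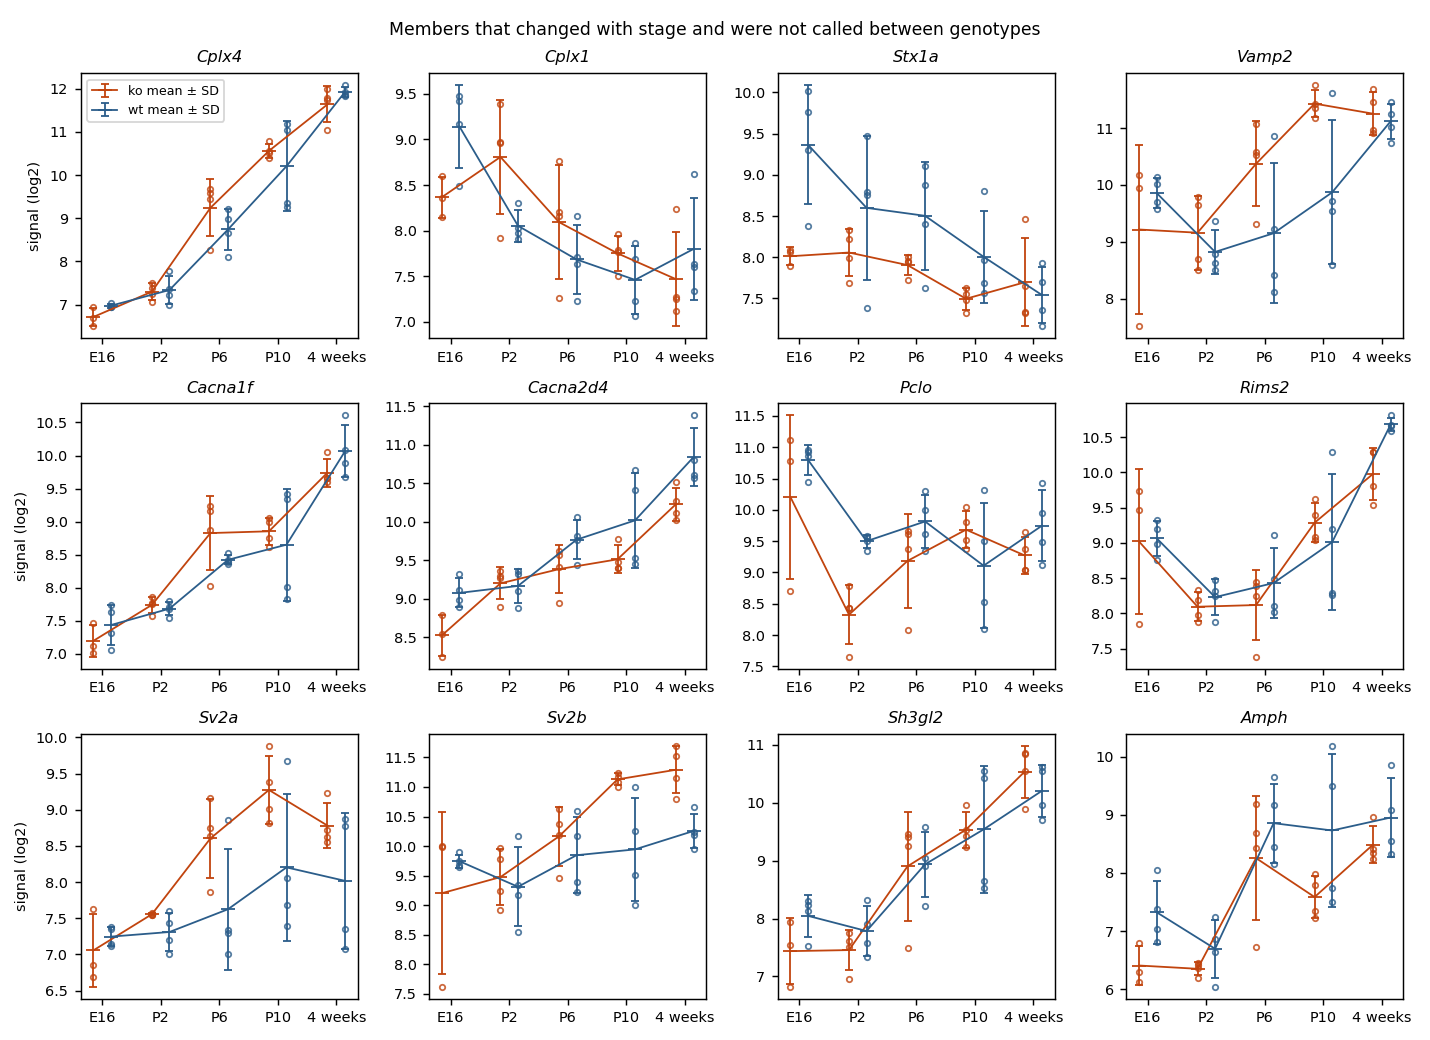
Signal (log2) of 12 members with no genotype call at any stage, in every array (circles) with group mean ± SD (bars), in ko and wt from E16 to 4 weeks. Cplx4, Cacna1f and Cacna2d4 climb in both genotypes, and Cplx1 and Stx1a are highest at E16 in wt.

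Of 79 other genes of presynaptic release, 74 were measured. Between genotypes, 0 were higher and 2 lower in ko at E16, against 0.308% and 0.819% of all genes. At P2, limma called 0 of them, against 0.126% and 0.22%. At P6, 1 was higher and 0 lower, against 0.797% and 0.748%. At P10, 5 were higher and 1 lower, against 1.95% and 0.868%. At 4 weeks, 5 were higher and 3 lower, against 2.11% and 2.62%. Slc17a7, encoding the vesicular glutamate transporter that fills photoreceptor vesicles, averaged 9.09 ± 1.04 in ko and 7.12 ± 0.33 in wt at P6 (SD, n = 4 each). It remained higher at P10 (1.83 ± 0.35 SE) and at 4 weeks (1.73 ± 0.35). Cltb, a clathrin light chain, was higher in ko at P10 (1.31, called absent in wt) and at 4 weeks (2.30 ± 0.25 SE, adjusted p = 4.04e-08).

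Rab27b, a GTPase of secretory vesicles, and the vesicle SNARE gene Vamp4 were higher at P10 (1.73 and 1.57) and at 4 weeks (1.40 and 1.10). Scamp1 was higher at P10 (1.38) and Syngr3, a synaptogyrin gene, at 4 weeks (0.45). Lower in ko at 4 weeks were Cacna2d3, a calcium channel subunit gene (-1.49), Itsn2, an endocytic scaffold gene (-1.43), and Rims3 (-1.18). Sh3gl3 was lower at P10 (-0.49, called absent in both genotypes), and at E16 so were Cacna1d, a second L-type channel gene (-2.30, adjusted p = 0.0172, called absent in ko), and Syt4 (-1.55, adjusted p = 0.00113).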

How the data were processed

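Signals are the authors' deposited log2 values, and per the submitters' processing notes RMA was the tool, with no version or settings given in the sources used here. RNA was amplified with a Nugene kit per the labels' protocols. The authors' deposited detection calls (unit other: present or absent by probe set and stage) were used for 4 of the 5 stages, since the adult column matches no stage label by name. Of 45101 probe sets, 34945 were paired with 1 gene, 932 with several and 9160 with none listed, and 64 were controls. Each gene took its probe set of highest mean. Levels of different probe sets are not compared.

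Groups came from the labels. One mean per group was fitted to all 39 arrays with limma 3.58.1 under R 4.3.3 (lmFit and eBayes, 29 residual and 2.81 prior degrees of freedom), with Benjamini-Hochberg adjustment over 18193 genes within each of 11 comparisons. No filter was applied. The number of arrays limits the precision, and p-values measure the spread between arrays, which may be technical. Members, gene lists and tests were chosen with earlier results of these data known. Members called between genotypes or across stages are named with their values in every array. Ribbon, active zone, SNARE and calcium channel members are named by group, and the rest by ranges and counts. On simulated data for ko against wt at E16, the fit recovered 23 of 67 genes given a 1.5-fold change, 45 of 67 given 2-fold and 63 of 66 given 4-fold. It called 9 of the 17993 genes left as they were. The simulated noise was normal and independent between genes and arrays, with the same SD in every group for a gene. It held no array-wide shifts such as those of low-spread arrays, so these figures may not carry over to the real arrays.

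Whether replicate numbers pair the arrays was checked from the correlation of deviations from group means. Same-numbered pairs ran from r = -0.72 to r = 0.76. In each of the 9 comparisons of 2 groups at least 1 pair was below 0 and at least 1 above. The check does not tell whether some same-numbered arrays shared a batch. The numbers were not treated as pairs, and a replicate block was fitted as an alternative. The alternatives were quantile normalization, array weights, a filter on detection calls, other probe sets, fits of the compared groups alone, left-out arrays and the replicate block. Array weights were first estimated with limma's default, which did not converge and gave 1 array a weight of 0. The gene-by-gene method replaced it after the counts under the default had been seen.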

Additional observations from a re-analysis of the deposited data

Results flagged for a closer look

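A single array lay far from the others of its group, by Dixon's criterion for 4 arrays, in 33 of 396 sets of 4 arrays (12 high and 21 low), where chance flags about 1 in 20. Of these, 14 came from the 6 doubted arrays. From ko P6 replicate 4 came low values of Cplx4 (8.26), Mpp4 (8.27), Sh3gl2 (7.49), Synj1 (9.70), Napb (9.97) and Ctbp2 (10.2), with Bsn at 7.60 and Vamp1 at 7.91. From ko 4 weeks replicate 2 came Cplx1 (8.24), Rab3a (10.6), Syn2 (6.92) and Mpp4 (11.4), and from ko P2 replicate 4 came Stx3 (10.9) and Syp (10.7).

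Elsewhere in ko the single arrays were Cplx2 (10.2) and Cacnb2 (6.75) on P6 replicate 1, Unc13a (8.59) and Ctbp2 (10.7) on P10 replicate 1, Cplx3 (9.86) on P10 replicate 2 and Rab3a (10.9) on P10 replicate 3. At 4 weeks they were Lin7c (9.35) on replicate 1 and Cacna1f (10.1) on replicate 3. In wt they were Unc13b (9.58), Mpp4 (9.28) and Synj1 (9.93) on E16 replicate 2, Dag1 (9.59) on E16 replicate 1, Dnm1 (7.48) on P2 replicate 1 and Dag1 (9.05) on P6 replicate 3. At P10 replicate 3 stood out for Bsn (7.16), Cabp4 (8.95) and Syp (10.8), and at 4 weeks replicate 1 for Unc13b (11.9) and Vamp1 (8.66).

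The genotype effect differed between stages by limma's F test for Stx3 (adjusted p = 0.000782), Cacnb2 (0.00619), Nrxn3 (0.011), Rab3a (0.0155), Syt1 (0.0178) and Syp (0.0246). The change from E16 to P10 differed between ko and wt for Stx3 by 0.97 and for Cacnb2 by -1.01 (log2, ko minus wt). In the adult detection column, which matched no stage label, 2 members, Cplx1 and Cacnb2, were called absent in ko and present in wt.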

How the results depend on the processing

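Counts of members called with all arrays were 3, 0, 2, 2 and 6 between genotypes from E16 to 4 weeks, 18 in wt and 14 in ko from E16 to P10, 8 in wt and 0 in ko from P10 to 4 weeks, 6 across stages and 2 for the E16 to P10 change differing between genotypes. Quantile normalization gave 2 at P2, 4 at P6, 10 at 4 weeks, 6 at P10, 2 in ko from P10 to 4 weeks and 1 for the differing change. Gene-by-gene array weights gave 13, 6, 16, 23 and 13 at the 5 stages, 30 in wt and 26 in ko from E16 to P10, 33 in wt and 15 in ko after P10, 33 across stages and 22 for the differing change. Weights by REML, which stopped before convergence and were replaced after their counts were seen, gave 21, 6, 5, 29, 16, 33, 31, 37, 15, 36 and 28 in the same order. Over all genes the gene-by-gene weights raised the calls too, to 2246 at E16 and 7942 at P10, against 205 and 512. Fits of only the compared groups gave 0 at E16, 0 at P6, 0 at P10 and 2 at 4 weeks (Cacnb2 kept, Sv2b gained, and Cplx3, Syt1, Cabp4, Syp and Nrxn3 lost), 7 in wt from E16 to P10, 0 in wt and 6 in ko from P10 to 4 weeks, and 1 for the differing change. Without the 6 doubted arrays there were 3 at P2, 7 at P6, 8 at P10, 4 in wt and 8 in ko from P10 to 4 weeks, 12 across stages and 1 for the differing change. The probe set of highest variance gave 5 at E16 and 2 in ko from P10 to 4 weeks, and a present-call filter gave 4 for the differing change. Leaving out single arrays gave 1 to 4 at E16, 0 at P2, 1 to 3 at P6, 1 to 7 at P10, 5 to 6 at 4 weeks, 12 to 21 in wt and 13 to 15 in ko from E16 to P10, 4 to 12 in wt and 0 in ko after P10, 5 to 9 across stages and 0 to 11 for the differing change (11 without wt P10 replicate 3). Syt1 at 4 weeks was -0.97 with its probe set of highest variance, and the change of Stx1a in wt from E16 to P10 was 0.37 with probe sets ending in _x_at or _s_at left out. The replicate block gave 7 in wt from P10 to 4 weeks, losing Syt11, and 3 for the differing change, and it changed no other of the 61 calls. Same-numbered pairs of arrays were of both signs in each comparison of 2 groups, and the block was not treated as a pairing. The causes of these changes were not tested. Signal near background limits members such as Bsn and Cacnb2, called absent in all 8 groups with an assigned call.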
